A study of Mus musculus with 5 samples.

Results

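The genes described here are 10 regulators and markers of cortical area identity in the mouse: the homeobox genes Emx1 and Emx2, the orphan nuclear receptors Nr2f1 and Nr2f2 (COUP-TFI and COUP-TFII), the zinc finger gene Sp8, the LIM-only genes Lmo3 and Lmo4, the basic helix-loop-helix gene Bhlhe22, and the cadherins Cdh6 and Cdh8. They were taken by name from a table of 23997 gene names, in which all 10 were found. RNA had been sequenced from whole cerebral cortices of C57BL/6 embryos at E16, and 5 libraries were analysed. The cKO libraries MG18 and MG19 came from Emx1Cre/+ Uhrf1-/- embryos, and the control libraries MG15, MG16 and MG17 came from Emx1Cre/+ Uhrf1+/- embryos, so that both groups carried the Cre allele and the controls kept a functional Uhrf1 allele. Cre driven from Emx1 deletes the floxed exon 4 of Uhrf1 in the dorsal telencephalon, and interneurons, blood vessels and microglia, which arise elsewhere, keep Uhrf1. The question of the comparison was how loss of Uhrf1, a protein needed to copy DNA methylation to newly made DNA, changes gene expression in the cortex.

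The cortex is divided into motor, sensory and visual areas under the influence of signalling centres at its borders, among them the rostral source of FGFs and the caudomedial hem that makes Wnts and BMPs. These signals set up gradients of transcription factors in cortical progenitors. Pax6 and Sp8 are high rostrally, Emx2 and Nr2f1 are high caudally, and each favours the areas of its own pole. Postmitotic neurons then carry the pattern further through factors such as Bhlhe22 and Lmo4, and they display adhesion molecules such as Cdh6 and Cdh8 in sharply bounded areas.

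The values are FPKM (fragments per transcript length and sequencing depth), a scale on which levels of different genes can be set side by side. Each library held a whole cortex, so that a gradient that shifts without a change in its sum is not seen, and in whole tissue fewer cells of a type and less RNA per cell cannot be told apart. Uhrf1 was measured at 2.75 and 2.61 FPKM in the cKO libraries and at 7.24, 13.2 and 13.0 FPKM in the control libraries (log2 fold change -1.97, adjusted p = 0.00775, limma). The steps between low values put the depth at roughly 8400000 and 10000000 fragments in the cKO libraries and 11000000 to 38000000 in the control libraries. Across genes, pairs of libraries correlated at 0.953 to 0.983.

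None of the 10 genes changed by the thresholds of the study, an unadjusted p under 0.05 and over 2-fold, which 4.04% of all 14697 genes tested passed. None had an adjusted p under 0.05 either (limma with Benjamini-Hochberg adjustment), against 1.26% of all genes (1.10% higher and 0.163% lower). At an unadjusted p under 0.05 alone, which 11.5% of all genes passed, there were 5: Sp8 and Cdh6 were higher in the cKO (6.37% of all genes were), and Emx1, Lmo4 and Bhlhe22 were lower (5.17% of all genes were). In these 5 genes the cKO and control libraries did not overlap, and they overlapped in the other 5. Over all genes tested, 30.8% did not overlap (14.5% higher and 16.3% lower). The median log2 fold change was -0.25 over the 10 genes and -0.02 over all genes, with 3 above 0 and 7 below. With 2 cKO libraries against 3 controls, the exact permutation test over libraries cannot give a p under 0.1.

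**Figure D1:**
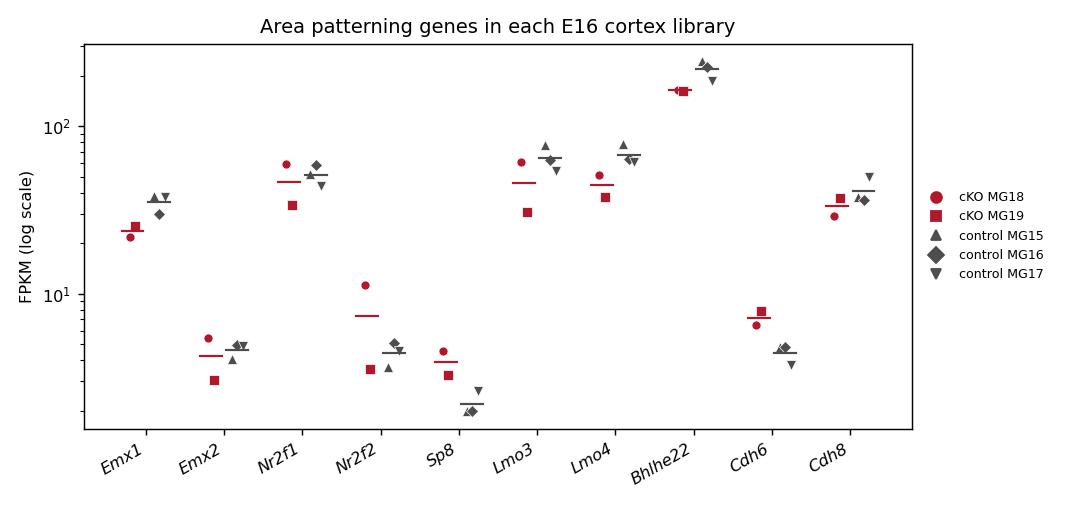
FPKM (log axis) of the 10 genes in each library, cKO in red and left of control in grey. Points are single libraries and bars are group means. The cKO points lie apart from the control points for Emx1, Sp8, Lmo4, Bhlhe22 and Cdh6, and MG18 lies far above MG19 for Nr2f2.

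By level, the 10 genes fell into 2 sets. Bhlhe22 was the most abundant, above 98.2% of the genes tested in mean FPKM, followed by Lmo4 (91.1%), Lmo3 (90.9%), Nr2f1 (89.0%), Cdh8 (84.7%) and Emx1 (80.5%). From Lmo4 to Emx1 each gene overlapped its neighbour in FPKM across libraries. Nr2f2 (40.0%), Cdh6 (39.7%), Emx2 (36.0%) and Sp8 (29.1%) were much lower, and neighbours in this lower set overlapped too. In fragments, which also depend on transcript length and depth, the sets were less distinct. Per library, Emx2 had roughly 89 to 450 fragments and Sp8 130 to 340. Nr2f2 had 150 to 590 and Cdh6 340 to 1500. In the upper set, Emx1 had 290 to 2300 and Bhlhe22 4600 to 31000. In the cKO libraries Cdh6 had more fragments than Emx1, 440 and 640 against 290 and 390.

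**Figure D2:**
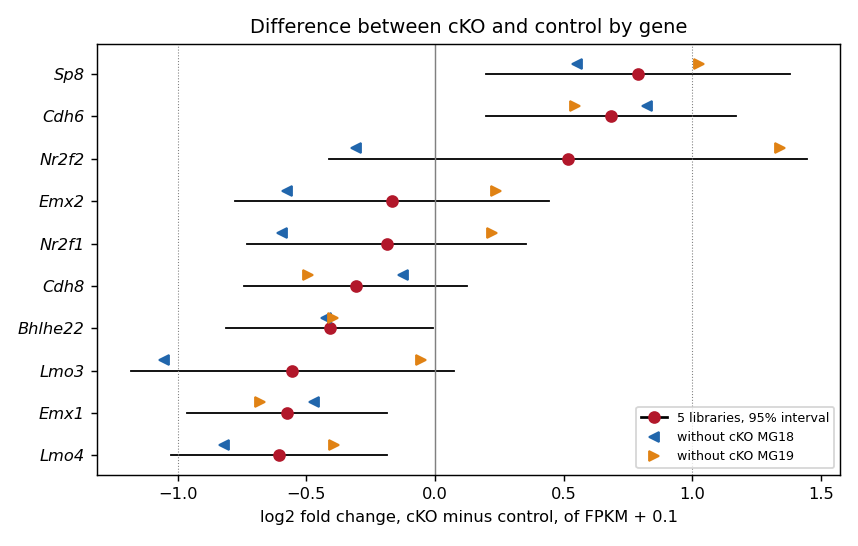
Log2 fold change (cKO minus control) of FPKM + 0.1 for each gene, as red points with 95% intervals, with the value without cKO library MG18 (blue triangles) and without MG19 (orange triangles). Dotted lines mark 2-fold. The interval spans 0 for Nr2f2, Emx2, Nr2f1, Cdh8 and Lmo3, and leaving out a cKO library turns the sign for Nr2f2, Emx2 and Nr2f1.

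The sequence before the start site was compared because Uhrf1 acts on methylated CG pairs. RefSeq promoters of GRCm38.p6 were matched for 9 of the 10 genes, all but Bhlhe22. Only 1 start per gene was read, and the counts do not cover other starts. GENCODE lists 6 transcripts for Nr2f2, 2 for Sp8 and 8 for Lmo4. Of the letters searched, CG, which reads the same on both strands, at least 1 copy stood in the 250 bases before the start of 92.1% of all 32851 promoters, and the median was 6. Lmo4 had 44 copies, more than 99.5% of promoters had, and Cdh8 had 20. Emx1 had 30, Emx2 24 and Nr2f1 22, but for these 3 genes all 250 bases lie inside an exon of the longer GENCODE model, so that the counts are of transcribed sequence by that annotation. Lmo3 and Cdh6 had 6 each, while Nr2f2 and Sp8 had 1 each, and 7.9% of promoters had fewer. The last 150 bases before the start are shown for a lower gene and both higher genes, with CG in capitals, for Lmo4 (chr3:144205256-144205405, minus strand, 27 copies), Sp8 (chr12:118846179-118846328, plus strand, 0 copies) and Cdh6 (chr15:13173676-13173825, minus strand, 4 copies).
Lmo4: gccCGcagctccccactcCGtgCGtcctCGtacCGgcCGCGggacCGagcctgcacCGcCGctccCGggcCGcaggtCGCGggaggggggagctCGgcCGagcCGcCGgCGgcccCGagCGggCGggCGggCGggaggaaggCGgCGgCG
Sp8: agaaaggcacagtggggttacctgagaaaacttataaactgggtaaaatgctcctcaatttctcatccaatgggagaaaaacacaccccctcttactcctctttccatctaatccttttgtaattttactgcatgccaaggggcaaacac
Cdh6: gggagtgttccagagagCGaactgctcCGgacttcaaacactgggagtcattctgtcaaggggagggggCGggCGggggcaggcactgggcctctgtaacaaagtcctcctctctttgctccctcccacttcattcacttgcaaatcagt

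Emx1 marks the dorsal telencephalic lineage and drives the Cre used here. It lies on chromosome 6 from 85187438 to 85204462 (GRCm38, plus strand, GENCODE). Emx1 was measured at 21.9 and 25.3 FPKM in the cKO libraries, against 38.3, 29.9 and 37.6 FPKM in the control libraries. Both cKO libraries lay below all controls, and the cKO mean (23.6 ± 2.43, SD, n = 2) was 66.8% of the control mean (35.3 ± 4.66, SD, n = 3). The log2 fold change was -0.58 (SE 0.17, 95% interval -0.96 to -0.19, unadjusted p = 0.00831, adjusted p = 0.235, limma). Without MG18 it was -0.47 (unadjusted p = 0.0808). Both groups carry the Cre allele, and its own effect on the Emx1 transcript was not tested.

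Emx2, the caudally graded relative of Emx1 that promotes visual area identity, lies on chromosome 19 from 59458372 to 59465357 (plus strand). Emx2 was at 5.45 and 3.06 FPKM in the cKO libraries, against 4.09, 4.94 and 4.85 FPKM in the control libraries. The cKO libraries stood on either side of all controls. On the log2 scale the difference was -0.17 (SE 0.27, 95% interval -0.78 to 0.44, adjusted p = 0.833), and it was 0.24 without MG19. Emx2os, a transcript from the opposite strand that overlaps Emx2 by 264 bases, was at 0.646 and 0.463 FPKM in the cKO libraries, against 0.840, 1.05 and 1.04 FPKM in the control libraries (log2 fold change -0.73, adjusted p = 0.438). Of the 100-base windows of Emx2 transcripts, 5.51% also occur in Emx2os, and whether fragments were counted by strand is not stated.

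Other progenitor factors were set beside the Emx genes. Lhx2, a LIM homeobox factor that gives the cortex its identity against the hem, was at 49.3 and 42.1 FPKM in the cKO libraries, against 71.0, 78.4 and 73.2 FPKM in the control libraries (log2 fold change -0.70, SE 0.15, unadjusted p = 0.00126, adjusted p = 0.0754). Pax6, the rostrally graded counterpart of Emx2, was at 10.7 and 13.9 FPKM in the cKO libraries, against 16.2, 20.5 and 22.4 FPKM in the control libraries (log2 fold change -0.68, SE 0.20, unadjusted p = 0.00773, adjusted p = 0.230). For both genes the groups did not overlap, and neither passed the adjusted threshold. Sox2, a factor of neural progenitors at large, was at 44.4 and 42.3 FPKM in the cKO libraries and 42.4, 42.0 and 41.1 FPKM in the control libraries, and these overlapped (log2 fold change 0.05, 95% interval -0.27 to 0.37).

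Ratios within a library were taken to Sox2, with no test. Emx1 to Sox2 was 0.492 and 0.598 in the cKO libraries, against 0.904, 0.713 and 0.915 in the control libraries. Lhx2 to Sox2 was 1.11 and 0.994 in the cKO libraries, against 1.67, 1.87 and 1.78 in the control libraries. Pax6 to Sox2 was 0.240 and 0.327 in the cKO libraries, against 0.381, 0.487 and 0.545 in the control libraries. In all 3 ratios every cKO library was below every control, whereas Emx2 to Sox2 overlapped. Sox2 was chosen after its values were seen and varied little between libraries, so these ratios largely restate the levels given above. Nes, another progenitor marker, was itself lower, at 40.4 and 37.3 FPKM in the cKO libraries, against 57.6, 59.0 and 49.4 FPKM in the control libraries. Ratios to Nes were not taken. Of 13 tested markers of radial glia and intermediate progenitors (Pax6 and Sox2 among them), 0 passed the thresholds of the study (4 were lower and 1 higher at an unadjusted p under 0.05, limma), 6 were lower in the cKO with no overlap and 1 was higher (16.3% and 14.5% of all genes were), and the median log2 fold change was -0.29. Their summed level was 1481 and 1223 FPKM in the cKO libraries and 1583 to 2244 FPKM in the control libraries. Most of this sum was Fabp7, at 899 and 729 FPKM in the cKO libraries, against 1153, 923 and 1479 FPKM in the control libraries. The part of progenitor number in the lower Emx1 level was not tested.

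**Figure D3:**
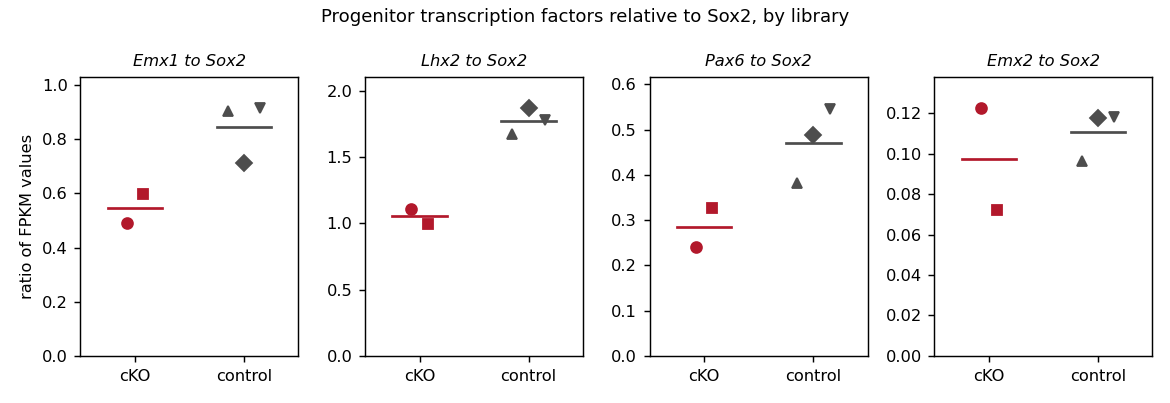
Ratio of the FPKM of Emx1, Lhx2, Pax6 and Emx2 to that of Sox2 in each library, cKO in red (left) and control in grey (right), with bars for group means. The cKO points lie below all control points for Emx1, Lhx2 and Pax6 and overlap them for Emx2.

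Nr2f1, which represses motor identity in the parietal and occipital cortex, lies on chromosome 13 from 78188973 to 78199757 (minus strand). Nr2f1 was at 59.6 and 33.8 FPKM in the cKO libraries, against 51.5, 58.8 and 44.0 FPKM in the control libraries. The cKO libraries were the highest and the lowest of the 5. Its log2 fold change was -0.19 (SE 0.24, 95% interval -0.73 to 0.36, adjusted p = 0.785), and it was 0.22 without MG19. A830082K12Rik, which overlaps it on the opposite strand, was at 10.3 and 9.15 FPKM in the cKO libraries, against 12.4, 13.2 and 11.3 FPKM in the control libraries (log2 fold change -0.33, unadjusted p = 0.0843).

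Nr2f2, its relative, is known from the caudal ganglionic eminence and the interneurons that come from it, and from the caudal and medial cortex. It lies on chromosome 7 from 70351944 to 70366735 (minus strand). Nr2f2 was at 11.3 and 3.52 FPKM in the cKO libraries, against 3.66, 5.08 and 4.51 FPKM in the control libraries. MG18 alone was high, and MG19 was below all controls. The log2 fold change was 0.52 (SE 0.41, 95% interval -0.41 to 1.44, adjusted p = 0.649), it turned to -0.31 without MG18, and it was 1.34 without MG19 (unadjusted p = 0.00391, adjusted p = 0.249). B130024G19Rik on the opposite strand, which holds 6.37% of the 100-base windows of Nr2f2, was also highest in MG18, at 1.41 and 0.262 FPKM in the cKO libraries and 0.544, 0.818 and 0.394 FPKM in the control libraries.

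Sp8 is graded from rostral and medial in cortical progenitors, where it antagonises Emx2, and it is also made in the lateral and caudal ganglionic eminences and their interneurons. It lies on chromosome 12 from 118846329 to 118852576 (plus strand). Sp8 was at 4.55 and 3.24 FPKM in the cKO libraries, against 2.0, 1.98 and 2.61 FPKM in the control libraries. Both cKO libraries were above all controls. On the log2 scale the difference was 0.79 (SE 0.26, 95% interval 0.20 to 1.38, unadjusted p = 0.0142, adjusted p = 0.292). It was 0.55 without MG18 (unadjusted p = 0.120) and 1.03 without MG19 (unadjusted p = 0.0164). Its close relative Sp9, a factor of ganglionic eminence progenitors and interneurons, was at 3.88 and 5.06 FPKM in the cKO libraries, against 2.37, 1.78 and 2.91 FPKM in the control libraries (log2 fold change 0.91, SE 0.27, unadjusted p = 0.00856, adjusted p = 0.236). The ratio of Sp8 to Emx2 was 0.834 and 1.06 in the cKO libraries, against 0.489, 0.402 and 0.537 in the control libraries, whereas Sp8 to Sp9 overlapped.

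Many markers of the ventral telencephalon and interneurons were high in the same library as Nr2f2 and Sp8. The summed level of the 21 markers was 414 and 265 FPKM in the cKO libraries and 244 to 282 FPKM in the control libraries. Npy, a neuropeptide, was the largest part of this sum in every library. Npy was at 134 and 85.0 FPKM in the cKO libraries and 81.5, 70.2 and 100 FPKM in the control libraries, and these overlapped. In MG18 Sst came next, at 78.2 FPKM, so the MG18 sum rests in large part on these genes. MG18 had the highest value of the 5 libraries for 11 of the 21, and MG19 was above every control for 10. Of the 19 tested, 1 passed the thresholds of the study (Gsx2, higher, as were 2.88% of all genes). At an unadjusted p under 0.05 (limma), 7 were higher and 2 lower (6.37% and 5.17% of all genes were). With no overlap, 8 were higher and 2 lower (14.5% and 16.3% of all genes were). Dlx1, a homeobox gene of interneurons and their precursors, was at 28.0 and 18.8 FPKM in the cKO libraries, against 14.8, 13.9 and 15.2 FPKM in the control libraries. Gad1, which makes GABA, was at 20.1 and 11.6 FPKM in the cKO libraries, against 10.1, 10.2 and 9.28 FPKM in the control libraries. Sst, a peptide of interneurons, was at 78.2 and 25.5 FPKM in the cKO libraries and 23.2, 27.0 and 38.6 FPKM in the control libraries, so only MG18 stood out. Calb2 went the other way, at 7.12 and 5.85 FPKM in the cKO libraries, against 13.1, 11.6 and 11.8 FPKM in the control libraries, and this was 1 of the 2 lower markers. Lhx8 and Gsx1, of ventral progenitors, were under the minimum for testing, at 0 in both cKO libraries and at most 0.110 FPKM in the control libraries. The ratios of Sp8 and of Nr2f2 to Dlx1 overlapped between the groups. The part of ventral or interneuron content in the values of Sp8 and Nr2f2 was not tested.

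**Figure D4:**
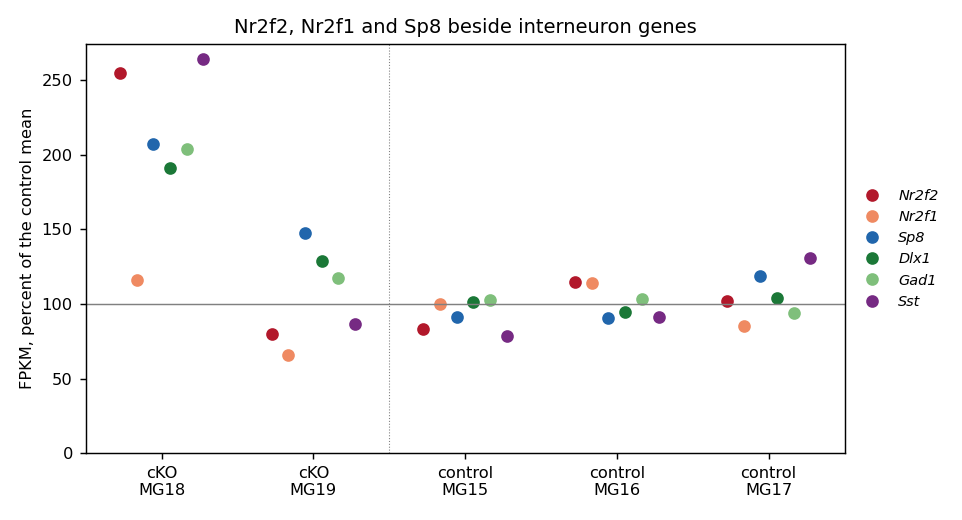
FPKM of Nr2f2, Nr2f1, Sp8, Dlx1, Gad1 and Sst in each library as a percent of the control mean (linear axis), with the cKO libraries on the left. In MG18 all 6 genes lie above every control, Nr2f1 by little, while in MG19 only Sp8, Dlx1 and Gad1 do.

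Lmo3 and Lmo4 are LIM-only proteins, which bind LIM-domain partners such as Ldb1 without binding DNA. Lmo4 is known from rostral and caudal cortex, where it takes part in the organisation of motor and sensory areas, and lies on chromosome 3 from 144188530 to 144205220 (minus strand). Lmo4 was at 51.1 and 38.0 FPKM in the cKO libraries, against 77.8, 63.5 and 61.1 FPKM in the control libraries. Both cKO libraries were below all controls. Its log2 fold change was -0.61 (SE 0.19, 95% interval -1.02 to -0.19, unadjusted p = 0.00952, adjusted p = 0.245), and it was -0.39 without MG19 (unadjusted p = 0.123). This was the most negative of the 10 log2 fold changes, and its interval holds the values of Emx1, Lmo3, Bhlhe22 and Cdh8.

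Lmo3, on chromosome 6 from 138362918 to 138581968 (minus strand), was at 61.4 and 30.7 FPKM in the cKO libraries, against 76.9, 62.6 and 53.8 FPKM in the control libraries. MG19 was the lowest library and MG18 lay among the controls. The log2 fold change was -0.55 (SE 0.28, 95% interval -1.18 to 0.07, unadjusted p = 0.0766, adjusted p = 0.482). Without MG18 it was -1.05 (unadjusted p = 0.00820, adjusted p = 0.332), and without MG19 it was -0.05. The ratio of Lmo4 to Lmo3 overlapped between the groups. Of 13 partners of the 10 genes, 0 passed the thresholds of the study (1 was higher at an unadjusted p under 0.05, limma), and their median log2 fold change was 0.08. Ctnnb1, the beta-catenin that links cadherins to the cytoskeleton, was at 428 and 439 FPKM in the cKO libraries, against 571, 559 and 533 FPKM in the control libraries (log2 fold change -0.35, adjusted p = 0.506), and Ctnna2 overlapped.

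Bhlhe22 (Bhlhb5) acts in postmitotic neurons on area identity and on the corticospinal projection, together with the repressor Prdm8. It is a gene with a single exon on chromosome 3 from 18054174 to 18057517 (plus strand). Bhlhe22 was at 165 and 162 FPKM in the cKO libraries, against 244, 225 and 187 FPKM in the control libraries. The cKO libraries were close to each other and below all controls. On the log2 scale the difference was -0.41 (SE 0.18, 95% interval -0.81 to -0.01, unadjusted p = 0.0467, adjusted p = 0.422), and when a library was left out the unadjusted p lay between 0.00757 and 0.160. It was -0.26 after quantile normalization (unadjusted p = 0.197) and -0.22 with each library scaled to the same sum of FPKM (unadjusted p = 0.253), and the unadjusted p was 0.0705 without a trend in the prior variance and 0.0527 with embryo sex as a covariate. Prdm8 overlapped between the groups, at 21.6 and 25.5 FPKM in the cKO libraries and 29.1, 24.2 and 15.6 FPKM in the control libraries. The ratio of Bhlhe22 to Prdm8 was 7.66 and 6.36 in the cKO libraries, against 8.39, 9.27 and 12.01 in the control libraries. The 12 markers of excitatory neurons, the cells in which Bhlhe22 and Cdh8 are chiefly made, stood at a median log2 fold change of 0.05, and 0 passed the thresholds of the study (1 was higher at an unadjusted p under 0.05, limma). Their summed level was 2684 and 2488 FPKM in the cKO libraries and 2701 to 3116 FPKM in the control libraries. Most of this sum was Tubb3, which overlapped, at 1767 and 1533 FPKM in the cKO libraries and 2061, 1629 and 1579 FPKM in the control libraries. Neurod6 came next, at 612 and 589 FPKM in the cKO libraries, against 712, 686 and 1013 FPKM in the control libraries. The sum therefore reads mainly these genes. Of the 12, Neurod6 alone was lower with no overlap, and 2 were higher (16.3% and 14.5% of all genes were). The higher ones were Tbr1 and Cux2. Tbr1 was at 40.2 and 43.5 FPKM in the cKO libraries, against 28.2, 39.1 and 34.1 FPKM in the control libraries. Cux2 was at 20.0 and 18.7 FPKM in the cKO libraries, against 15.2, 15.2 and 13.8 FPKM in the control libraries. The part of excitatory neuron content in the lower Bhlhe22 level was not tested.

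Cdh6 and Cdh8 are type II cadherins, adhesion molecules by which neurons of an area recognise each other. Cdh6 lies on chromosome 15 from 13028701 to 13173675 (minus strand). Cdh6 was at 6.46 and 7.85 FPKM in the cKO libraries, against 4.76, 4.77 and 3.74 FPKM in the control libraries. Both cKO libraries were above all controls. Its log2 fold change was 0.68 (SE 0.22, 95% interval 0.20 to 1.17, unadjusted p = 0.0110, adjusted p = 0.264), and it was 0.54 without MG19 (unadjusted p = 0.0896). Cdh8 lies on chromosome 8 from 99024471 to 99416471 (minus strand). Cdh8 was at 29.0 and 37.4 FPKM in the cKO libraries, against 37.5, 36.5 and 49.5 FPKM in the control libraries. MG18 was the lowest library, and MG19 lay among the controls (log2 fold change -0.31, SE 0.19, 95% interval -0.74 to 0.13, adjusted p = 0.566). Cdh6 to Cdh8 was 0.223 and 0.210 in the cKO libraries, against 0.127, 0.131 and 0.0755 in the control libraries, with no overlap.

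Other relatives of the 10 genes were mostly cadherins. Of 19 tested, 2 passed the thresholds of the study and both were higher in the cKO (2.88% of all genes were), 8 did not overlap and were higher, and 2 were lower with no overlap (14.5% and 16.3% of all genes were). The median log2 fold change was 0.24. Cdh19, a type II cadherin known from Schwann cell precursors, rose to 3.80 and 5.74 FPKM in the cKO libraries, against 0.0379, 0.0194 and 0 FPKM in the control libraries (log2 fold change 5.34, SE 0.39, adjusted p = 1.17e-04). Its adjusted p was at most 0.0231 in any alternative, and its log2 fold change was 2.48 with a pseudocount of 1 and 7.60 with 0.01. Cdh22 was at 2.17 and 0.611 FPKM in the cKO libraries, against 0.296, 0.243 and 0.397 FPKM in the control libraries (log2 fold change 1.64, SE 0.50, unadjusted p = 0.00957, adjusted p = 0.245). It was 0.80 without MG18 (unadjusted p = 0.0867) and 0.78 with a pseudocount of 1, both under 2-fold. Cdh4, the type I cadherin also called R-cadherin, was at 13.7 and 16.1 FPKM in the cKO libraries, against 6.40, 7.61 and 9.79 FPKM in the control libraries (log2 fold change 0.92, unadjusted p = 0.00198, adjusted p = 0.106). Cdh9 was at 3.27 and 2.46 FPKM in the cKO libraries, against 1.99, 1.31 and 1.34 FPKM in the control libraries (log2 fold change 0.86, unadjusted p = 0.0159, adjusted p = 0.303). Relatives of Bhlhe22 that mark oligodendrocyte precursors and ventral progenitors were among the 8, Olig1 at 14.2 and 8.11 FPKM in the cKO libraries, against 7.86, 4.09 and 5.56 FPKM in the control libraries, and Olig2 at 5.83 and 4.74 FPKM in the cKO libraries, against 4.22, 2.51 and 3.23 FPKM in the control libraries. Cdh11 was on the other side, at 26.3 and 28.3 FPKM in the cKO libraries, against 35.2, 35.8 and 31.6 FPKM in the control libraries (log2 fold change -0.32, unadjusted p = 0.0600). Apart from Emx2 with Emx2os, the transcripts of the 10 genes shared no 100-base window with a gene of this list.

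**Figure D5:**
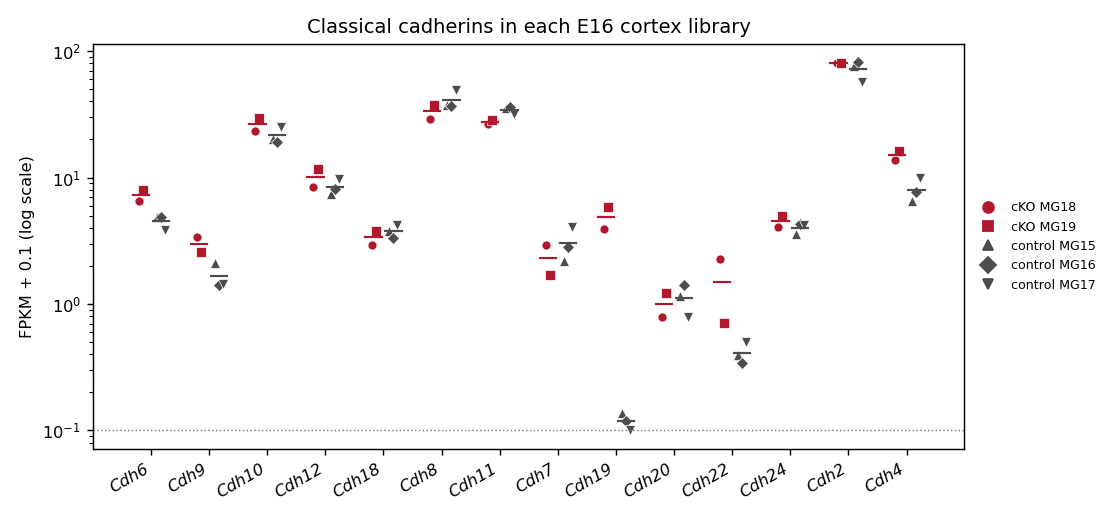
FPKM + 0.1 (log axis) of Cdh6, Cdh8 and 12 other classical cadherins in each library, cKO in red and left of control in grey. Bars are group means and the dotted line marks a listed value of 0. Cdh19 lies near the dotted line in all controls and at 3.80 and 5.74 FPKM before the addition in the cKO libraries, and Cdh6, Cdh9, Cdh22 and Cdh4 also lie above their controls.

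Signals of the patterning centres were read from a list of 22 ligands and secreted regulators, of which 16 were tested. Of these 2 were higher in the cKO by the thresholds of the study (2.88% of all genes were), 1 of them at an adjusted p under 0.05 (1.10%). At an unadjusted p under 0.05 (limma), 4 were higher and 0 lower (6.37% and 5.17% of all genes were). With no overlap, 6 were higher and 1 lower (14.5% and 16.3% of all genes were). The median log2 fold change was 0.21. Fgf15, which opposes Fgf8 in the rostral cortex and promotes differentiation, rose to 2.18 and 0.870 FPKM in the cKO libraries, against 0.0887, 0.0363 and 0.174 FPKM in the control libraries (log2 fold change 2.96, SE 0.51, adjusted p = 0.0241). Its adjusted p was 0.276 without MG18, 0.106 without MG19, 0.0584 without MG15 and 0.0668 without MG16, and its log2 fold change was 1.15 with a pseudocount of 1 and 3.88 with 0.01 (adjusted p = 0.0661). Shh, the ventralising signal, was at 0.400 and 0.202 FPKM in the cKO libraries, against 0.0941, 0.0631 and 0 FPKM in the control libraries (log2 fold change 1.40, unadjusted p = 0.0264, adjusted p = 0.367). Its log2 fold change was 0.30 with a pseudocount of 1, its unadjusted p was 0.0707 without MG17 and 0.0599 after quantile normalization, and without MG18 its mean fell under the minimum for testing. Fgf8, the rostral organiser, was listed at 0 in all 5 libraries. Wnt7b was at 84.1 and 89.4 FPKM in the cKO libraries, against 68.8, 71.5 and 71.7 FPKM in the control libraries (log2 fold change 0.29, unadjusted p = 0.0723).

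Of 12 FGF receptors and FGF target genes, 0 passed at an unadjusted p under 0.05, and the median log2 fold change was 0.05. The most abundant, Spred1 and Dusp6, which dampen signalling inside the cell, overlapped between the groups. Of 14 other patterning transcription factors tested, 0 passed the thresholds of the study (1 was higher and 2 lower at an unadjusted p under 0.05, limma), and the median log2 fold change was -0.11. The 2 that were lower were Lhx2 and Pax6, described above.

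Of 20 genes with area-restricted expression, 1 passed the thresholds of the study and was lower (1.16% of all genes were), and the median log2 fold change was -0.05. This was Crym, a thyroid hormone binding protein, at 20.3 and 9.71 FPKM in the cKO libraries, against 53.4, 36.7 and 24.2 FPKM in the control libraries (log2 fold change -1.36, SE 0.36, unadjusted p = 0.00418, adjusted p = 0.171). Without MG19 it was -0.83 (unadjusted p = 0.116). Lix1 was at 16.9 and 18.3 FPKM in the cKO libraries, against 28.6, 24.2 and 25.3 FPKM in the control libraries (log2 fold change -0.56, unadjusted p = 0.00583, adjusted p = 0.205). The most abundant of the list, Id2 and Epha3, overlapped between the groups.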

How the data were processed

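Total RNA from whole E16 cortices was depleted of ribosomal RNA, and stranded libraries were sequenced as paired reads. Per the labels and the study's methods, the authors mapped reads to mm10 with TopHat2, removed improper pairs and reads that were duplicated, poorly aligned or mapped to several places, and deposited FPKM values per gene and library from Cuffdiff. The sources used here do not give tool versions or the annotation. FPKM are no read counts, so no count test was used.

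The comparison of cKO (2 libraries) with control (3) used limma 3.58.1 (trend on the mean, no covariate) on log2(FPKM + 0.1), for all 14697 genes whose mean reached 0.1 FPKM, without small RNAs (58 names past that mean), with p adjusted after Benjamini and Hochberg. Fold changes are on this scale, which understates the change of low genes. Small RNAs made up 39.4% and 56.1% of summed FPKM in the cKO libraries and 64.7% to 87.4% in the control libraries. Depth could only be approximated, since 61.5% to 73.9% of low values came within 0.25 of whole fragments, so no counting intervals are given. The labels do not say whether replicates came from separate litters, so p-values measure only the spread between these libraries.

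The 10 genes and all lists were chosen with earlier results of these data known. The text names all 10, Uhrf1 and, from each list of related genes, up to 4 members past the thresholds of the study or the 2 with the highest mean FPKM. The values of 1 gene that this rule names are not reported here. Pax6, Sox2, Nes, Fabp7, Tubb3, Neurod6, Tbr1, Cux2, Wnt7b, Fgf8, Lix1, Prdm8, Cdh4, Cdh7, Cdh9, Cdh11, Cdh20, Sp9, Olig1, Olig2, Igbp1b, Mgst1, Drosha, Arrdc3, the antisense genes, the interneuron markers and the ratios were named after their values were seen, as were the promoter stretches shown. Names were matched to RefSeq by symbol (22500) or synonym (1359), 138 were not matched, and positions are from GENCODE M21. Alternatives were other pseudocounts, filters, scalings, a covariate, and each library left out. The covariate was embryo sex, inferred from the level of the Y-linked gene Ddx3y and not taken from a label. Tested on simulated data for these 14697 genes, a log2 change of 1 in 100 genes was found as follows: 49% passed an adjusted p under 0.05 and 48% the thresholds of the study, and for a log2 change of 2 the shares were 82% and 90%. A log2 change of 1 sits at the 2-fold threshold itself, so the 48% mainly reflects that threshold and does not measure sensitivity. Changes as small as those of the 10 genes were not simulated. Figures were drawn with matplotlib 3.10.9, and tables were handled with pandas 2.3.3 and numpy 2.4.6 in Python 3.11.15 and with R 4.3.3. DNA methylation was not analysed here.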

Additional observations from a re-analysis of the deposited data

How the results depend on the processing

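The 10 genes were refitted under 15 alternatives, and 145 of the 150 log2 fold changes kept the direction given above. The others were Emx2, at 0.24 without MG19 and 0.0155 with equal sums (each library scaled to the same sum of FPKM without small RNAs, Rmrp and Rpph1, an alternative chosen after seeing the data), Nr2f1, at 0.22 without MG19 and 7.36e-04 with equal sums, and Nr2f2, at -0.31 without MG18. The opposite omissions gave -0.57 for Emx2 and -0.60 for Nr2f1 without MG18, and 1.34 for Nr2f2 without MG19. Equal sums moved the median of all genes to 0.16, and relative to it Emx2 was at -0.15 and Nr2f1 at -0.16. The number of the 10 genes past an unadjusted p under 0.05 was 5 as reported, 3 with equal sums (without Emx1 and Bhlhe22), 4 without Bhlhe22 after quantile normalization, with no trend in the prior variance and with embryo sex as a covariate, and 4 to 5 when a control library was left out. Which of the 5 passed depended on the cKO library left out. The differences shrank to -0.47 for Emx1 and 0.55 for Sp8 without MG18, and to -0.39 for Lmo4 and 0.54 for Cdh6 without MG19. Bhlhe22 was at -0.42 without MG18 and -0.39 without MG19. The number past the thresholds of the study was 0 as reported and 0 to 2 when a library was left out: Lmo3 without MG18, and Nr2f2 and Sp8 without MG19. The number past an adjusted p under 0.05 was 0 under every alternative run. Where a cKO library was left out, the lone cKO library is assumed to vary like the controls. Over all genes, 423 were higher and 171 lower by the thresholds of the study, against 154 and 25 with a pseudocount of 1, 172 and 64 with the minimum mean raised to 1 FPKM, 594 and 120 with equal sums, and 321 and 288 after quantile normalization, and 313 were lower without MG18. At an adjusted p under 0.05, 161 were higher and 24 lower, against 100 and 13 with that minimum, 34 and 2 without MG18, 45 and 4 without MG19, and 10 and 11 lower without MG15 and MG16. No paired analysis was possible because the labels give no replicate numbers, and those used here only follow accession order. With 2 cKO libraries, differences of the size seen in Emx2, Nr2f1 and Cdh8 could not be told from 0.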

Other observations

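The nearest tested protein-coding genes on either side of the 10 genes, 20 in all, were read for changes that span a locus. Of these, 5 were higher and 3 lower in the cKO with no overlap (14.5% and 16.3% of all genes were), 1 passed the thresholds of the study (4.04% of all genes did), and 0 had an adjusted p under 0.05 (limma, 4 at an unadjusted p under 0.05). Not all of these neighbours are local. Among those with no overlap, Cdh9 lies 3555081 bases from Cdh6, Cdh11 lies 3215624 bases from Cdh8, and Arrdc3 lies 2683627 bases from Nr2f1. The gene past the thresholds was Igbp1b, 75121 bases from Lmo3, at 0.709 and 0.697 FPKM in the cKO libraries, against 0.138, 0 and 0.132 FPKM in the control libraries (log2 fold change 2.18, adjusted p = 0.105). On the other side of Lmo3, at 206163 bases, Mgst1 was at 3.15 and 2.49 FPKM in the cKO libraries, against 4.24, 4.40 and 7.72 FPKM in the control libraries (log2 fold change -0.88, unadjusted p = 0.0146, adjusted p = 0.295). Beside Cdh6, at 93410 bases, Drosha, which cuts primary miRNA transcripts, was at 20.7 and 19.5 FPKM in the cKO libraries, against 14.6, 14.8 and 12.6 FPKM in the control libraries (log2 fold change 0.52, unadjusted p = 0.0104, adjusted p = 0.256).

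Cdh19 lies on chromosome 1 from 110888326 to 110977584 (GRCm38), on the same chromosome as Cdh7 (109982431 to 110140157) and Cdh20 (104768529 to 104995481). Cdh7 was at 2.84 and 1.60 FPKM in the cKO libraries and 2.09, 2.73 and 3.98 FPKM in the control libraries, and Cdh20 was at 0.682 and 1.12 FPKM in the cKO libraries and 1.06, 1.32 and 0.691 FPKM in the control libraries. Both overlapped between the groups, while Cdh19 did not.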
